A study of Mus musculus with 6 samples.

Results

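The circadian clock of MS-5 stromal cells was described through 10 genes, Per1, Per2, Cry1, Cry2, Arntl, Clock, Nr1d1, Nr1d2, Dbp and Bhlhe40, which were taken by name. Each name matched 1 gene of the 35968 genes with a transcript in the deposited files. MS-5 cells are a mouse bone marrow stromal line used as a feeder layer for blood progenitors, and SKM-1 is a human AML cell line. RNA-seq was done on 3 libraries of MS-5 cells grown by themselves (MO1, MO2 and MO3, "MS-5 only") and on 3 libraries of MS-5 cells separated from SKM-1 cells after 24 hr in direct contact (MC1, MC2 and MC3, "co-culture"). SKM-1 cells were taken off with a PBS wash and a mild trypsin step before the stromal layer was lifted, and reads were counted on mouse transcripts alone, so that human reads could be counted only where they resemble these. Co-cultures had 4 SKM-1 cells for each stromal cell, at 750000 SKM-1 cells per ml, over a confluent layer, and all cells were kept in RPMI 1640 with FBS, glutamine and antibiotics. Both groups are the same single line, for which the labels name no genetic change, and whether the 3 libraries of a group came from separate cultures is not given in the sources used here, so that p-values measure the spread between these libraries. The sources used here name neither the hour of harvest nor a step that sets the clocks of the cells to one phase, and with 1 time point a shift in phase and a change in level cannot be told apart.

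The mammalian clock is a feedback loop of transcription. The proteins of Arntl (also called Bmal1) and Clock bind as a pair to E-boxes in DNA and switch on the Per and Cry genes, whose proteins return to the nucleus and block the pair. In a second loop the same pair switches on Nr1d1 and Nr1d2, which encode the nuclear receptors REV-ERB alpha and REV-ERB beta, and these repress Arntl at elements that ROR receptors activate. Dbp is a direct output of the pair and activates genes at D-boxes, and Bhlhe40 (Dec1) encodes a repressor that competes for E-boxes and is also known as a gene induced by low oxygen. Fibroblast-like cells in culture carry such clocks, which drift out of step with each other unless a stimulus such as fresh serum or a hormone resets them.

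The promoter sequences below are those of the genes on which the results turn, and of Arntl as the target of the second loop. RefSeq (GRCm38.p6) promoters of 300 bases, with 250 before and 50 after a start site, were at hand for 8 of the 10 genes, 12 promoters in all, and none for Per2 and Bhlhe40. They were searched on both strands for the E-box CACGTG, the D-box TTANGTAA and the core of the ROR element TAGGTCA, of which none overlaps another within a promoter shown. Per1 and Arntl each have 2 start sites in the table, and for Arntl the one with a match is printed. For Per1 both are printed because the 2 main Per1 transcripts differ in their first exon. Capitals mark a motif, and sequences run 5′ to 3′ on the strand of the gene.
Per1, upstream start (chr11:69098699-69098998, plus strand): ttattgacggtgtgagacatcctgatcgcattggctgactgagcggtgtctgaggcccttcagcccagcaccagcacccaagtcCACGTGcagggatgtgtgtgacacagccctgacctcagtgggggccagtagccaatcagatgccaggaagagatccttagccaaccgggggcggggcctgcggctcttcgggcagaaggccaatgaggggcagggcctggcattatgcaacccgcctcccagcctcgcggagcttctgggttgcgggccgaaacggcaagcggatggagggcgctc
Per1, downstream start (chr11:69099902-69100201, plus strand): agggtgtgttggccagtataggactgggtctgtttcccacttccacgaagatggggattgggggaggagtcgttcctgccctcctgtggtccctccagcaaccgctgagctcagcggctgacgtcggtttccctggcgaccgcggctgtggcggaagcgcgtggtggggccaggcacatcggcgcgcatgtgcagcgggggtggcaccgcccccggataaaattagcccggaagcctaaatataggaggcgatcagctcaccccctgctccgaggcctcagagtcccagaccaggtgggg
Cry1 (chr10:85185005-85185304, minus strand): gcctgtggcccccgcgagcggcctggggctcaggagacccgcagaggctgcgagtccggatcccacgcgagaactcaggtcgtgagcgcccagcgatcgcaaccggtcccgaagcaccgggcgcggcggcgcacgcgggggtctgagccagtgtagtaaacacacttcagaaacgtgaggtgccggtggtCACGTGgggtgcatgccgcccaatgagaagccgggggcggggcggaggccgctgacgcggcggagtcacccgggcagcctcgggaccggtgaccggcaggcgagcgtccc
Arntl (chr7:113207261-113207560, plus strand): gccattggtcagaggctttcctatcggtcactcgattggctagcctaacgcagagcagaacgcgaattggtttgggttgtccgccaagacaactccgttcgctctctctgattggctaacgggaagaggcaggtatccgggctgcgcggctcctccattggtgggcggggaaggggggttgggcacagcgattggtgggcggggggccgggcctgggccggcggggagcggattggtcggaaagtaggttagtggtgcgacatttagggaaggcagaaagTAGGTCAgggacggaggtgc
Nr1d1 (chr11:98775328-98775627, minus strand): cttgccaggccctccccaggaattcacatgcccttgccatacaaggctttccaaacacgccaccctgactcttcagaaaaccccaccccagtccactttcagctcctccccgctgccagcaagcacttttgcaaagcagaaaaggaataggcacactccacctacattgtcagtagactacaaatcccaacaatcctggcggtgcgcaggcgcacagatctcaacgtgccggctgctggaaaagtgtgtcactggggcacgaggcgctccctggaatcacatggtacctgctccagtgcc
An E-box starts at position -166 from the upstream start of Per1 and at position -60 in Cry1, and the ROR core starts at position 31 from the Arntl start shown. The other Arntl window (chr7:113207215-113207514) overlaps the one shown, ends before that match and held none of the motifs. These were the 3 matches in the 12 promoters. Over all 32851 promoters of the table, 7.15% held the E-box, 2.32% the D-box and 2.61% the ROR core. A match describes letters in this window and is not a measured binding site.

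Total estimated counts per library ranged from 23978881 to 35694987. Of 12 stromal markers, Col1a1, Vim, Sparc and Cxcl12 had at least 627 CPM in every library, while Lum and Dcn had at most 0.061 CPM. The summed CPM of 15 leukocyte markers was 33.3 to 36.6 in MS-5 only, and 92.4 in MC1, 394 in MC2 and 92.4 in MC3. Of the 12 that could be tested, 11 were highest in MC2 among the co-culture libraries, and 8 passed the test and were higher in co-culture. Tyrobp was at or near 0 in all 6 libraries and Cd33 had at most 0.446 CPM. Of the 10 clock genes only Cry1 had its highest co-culture value in MC2, against 32.0% of all genes tested. Because RNA was taken from bulk samples of separated cells, a lower value could mean fewer cells that express a gene or less of its RNA per cell, which cannot be told apart. MO2 and MC3 stood apart from the other 4 libraries, with mitochondrial genes at 6.07% and 5.92% of counts against 10.6% to 13.2%, so that the results are also given without them.

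In co-culture, Nr1d1 and Bhlhe40 were about 1.4 to 1.5 times as high as in MS-5 only in the mean, and Cry1 was about 30% lower, and in these 3 genes every co-culture library lay outside the range of MS-5 only in TMM-normalised CPM, though not in the deposited TPM. None of the 10 genes passed the test. SE is the standard error of a log2 fold change. In edgeR (quasi-likelihood F-test, Benjamini-Hochberg adjusted across 13221 genes), 0 of the 10 had an adjusted p-value under 0.1, where 4.38% of all genes tested had one. At an unadjusted p under 0.05 there were 3 of the 10, the same Nr1d1, Bhlhe40 and Cry1, against 14.3% of all genes. In CPM, groups did not overlap in those 3 genes of 10, against 21.2% of all genes. In TPM they did not overlap in 0 of the 10, against 15.2% of all genes, with Nr1d1 at 79.1 TPM in MC2 and 80.5 in MO2, Bhlhe40 at 44.4 in MC2 and 63.2 in MO2, and Cry1 at 8.98 in MC3 and 7.70 in MO3. The separation of these genes thus depended on the scale, and overlap is given below in CPM. For 2 of the 10 every co-culture library was higher in CPM (11.6% of all genes) and for 1 lower (9.60%). DESeq2's Wald test called these 3 at an adjusted p under 0.1, against 9.59% of all genes, and limma on log2(TPM + 0.5) called 0, against 2.69% of all genes. The median log2 fold change was 0.22 over the 10 genes, with 7 positive and 3 negative, and -0.019 over all genes tested.

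**Figure D1:**
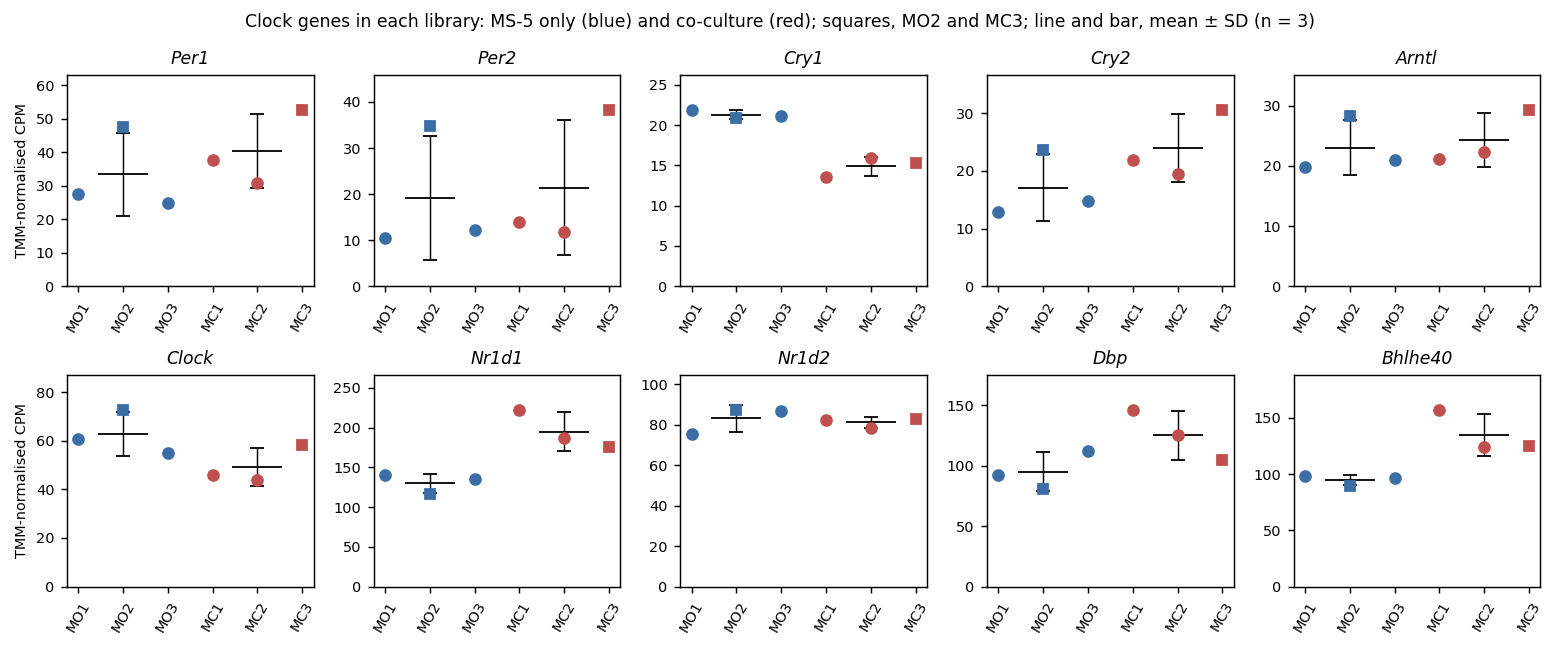
TMM-normalised CPM of each of the 10 clock genes (vertical axes from 0) in the 6 libraries (horizontal axes), with MS-5 only in blue, co-culture in red, squares for MO2 and MC3, and lines and bars for the mean ± SD of 3 libraries. Cry1, Nr1d1 and Bhlhe40 are parted between the groups, while Per2 reaches 34.7 in MO2 and 38.3 in MC3 and stays between 10.5 and 14.0 in the other 4 libraries.

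The positive limb showed a small difference in Clock and little in Arntl. Arntl (GRCm38 chromosome 7, 113207465 to 113314126), the partner that gives the pair its rhythm in most tissues, had 19.8, 28.2 and 20.9 CPM in MO1, MO2 and MO3 and 21.1, 22.3 and 29.3 CPM in MC1, MC2 and MC3. The groups overlapped, and the higher library of each was MO2 or MC3. The log2 fold change was 0.08 (SE 0.21, edgeR adjusted p = 0.951), and its direction was not stable, at -0.08 without MC3 and 0.25 without MO2. Clock (chromosome 5, 76209868 to 76304792), which encodes the partner of ARNTL and has histone acetyltransferase activity, had 60.7, 72.6 and 54.8 CPM in MS-5 only and 45.7, 43.7 and 58.2 CPM in co-culture. MC3 lay above MO3, so that the groups overlapped, although MC1 and MC2 lay below all MS-5 only libraries. The log2 fold change of Clock was -0.35 (SE 0.17, edgeR adjusted p = 0.441).

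The period genes followed the libraries MO2 and MC3 more than the culture. Per1 (GRCm38 chromosome 11, 69095217 to 69109960), a fast-responding repressor gene that hormones and cAMP can also induce, had 27.7, 47.5 and 25.0 CPM in MS-5 only and 37.6, 30.9 and 52.7 CPM in co-culture. Per2 (chromosome 1, 91415982 to 91459324), whose protein is the main timer of the repressor complex, had 10.5, 34.7 and 12.2 CPM in MS-5 only and 14.0, 11.8 and 38.3 CPM in co-culture. In both genes MO2 and MC3 were the highest libraries of their groups and the groups overlapped. In Per2, MO2 was 3.05 times the mean of MO1 and MO3, and MC3 was 2.97 times the mean of MC1 and MC2. The log2 fold changes between the groups were 0.28 for Per1 (SE 0.31, edgeR adjusted p = 0.814) and 0.16 for Per2 (SE 0.62, edgeR adjusted p = 0.975). Per1 moved to 0.04 without MC3, 0.10 without MO3, 0.43 without MC2 and 0.61 without MO2. The direction of Per2 was not stable, with values from -0.57 without MC3 to 0.91 without MO2.

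The cryptochrome genes, whose proteins are the strongest repressors of the pair, had differences of opposite sign. Cry1 (GRCm38 chromosome 10, 85131700 to 85185064) had 21.9, 20.9 and 21.1 CPM in MS-5 only and 13.6, 15.9 and 15.3 CPM in co-culture. All co-culture libraries were lower, and the spread was small, with 21.3 ± 0.538 CPM (SD, n = 3) against 14.9 ± 1.19 CPM (SD, n = 3). The log2 fold change was -0.51 (SE 0.13, edgeR adjusted p = 0.125). Cry2 (chromosome 2, 92403646 to 92434043) had 12.8, 23.7 and 14.8 CPM in MS-5 only and 21.9, 19.4 and 30.6 CPM in co-culture. MO2 lay above MC1 and MC2, so that the groups overlapped, and the log2 fold change was 0.49 (SE 0.29, edgeR adjusted p = 0.538). It was 0.27 without MC3 and 0.80 without MO2.

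Of the REV-ERB genes, Nr1d1 had groups that did not overlap in CPM and Nr1d2 had groups that did, and the difference between the genes was not tested. Nr1d1 (GRCm38 chromosome 11, 98767932 to 98775333) had 140, 117 and 135 CPM in MS-5 only and 222, 187 and 175 CPM in co-culture. Each co-culture library was above each MS-5 only library, at 130 ± 11.9 CPM (SD, n = 3) against 195 ± 24.5 CPM (SD, n = 3). The log2 fold change was 0.58 (SE 0.15, edgeR adjusted p = 0.127), and with library size in place of TMM the adjusted p was 0.0904. Nr1d2 (chromosome 14, 18204054 to 18239127), with a protein of overlapping function, had 75.6, 87.3 and 87.0 CPM in MS-5 only and 82.5, 78.3 and 82.7 CPM in co-culture. The co-culture libraries lay inside the range of MS-5 only, and the log2 fold change was -0.04 (SE 0.12, edgeR adjusted p = 0.964).

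Of the output and accessory genes, Bhlhe40 was parted between groups and Dbp was not. Bhlhe40 (GRCm38 chromosome 6, 108660629 to 108666925) had 98.0, 89.6 and 97.0 CPM in MS-5 only and 157, 124 and 125 CPM in co-culture. Every co-culture library was above every MS-5 only library, and the lowest of them was MC2. The log2 fold change of Bhlhe40 was 0.51 (SE 0.14, edgeR adjusted p = 0.148). Dbp (chromosome 7, 45705088 to 45710203), which encodes a PAR bZIP activator with one of the widest daily swings of any transcript in liver, had 92.3, 80.7 and 112 CPM in MS-5 only and 146, 125 and 105 CPM in co-culture. MC3 lay below MO3, so that the groups overlapped, and the log2 fold change was 0.40 (SE 0.19, edgeR adjusted p = 0.417). It was 0.26 without MC1.

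With a covariate for those libraries the log2 fold change of Per1 went from 0.28 to 0.30 and that of Cry2 from 0.49 to 0.51, and every SE of the 10 genes was smaller, that of Per2 going from 0.62 to 0.11 and that of Cry1 from 0.13 to 0.10. Without the libraries, Per1 went from 0.28 to 0.40 and Cry2 from 0.49 to 0.61, and the SE of Bhlhe40 stayed at 0.14. In edgeR with MO2 and MC3 as a covariate, a split read from the published principal component plot of these libraries and not from any label, 7 of the 10 genes had an adjusted p under 0.1, against 30.2% of all genes tested. Of these, Per1, Cry2, Nr1d1, Dbp and Bhlhe40 were higher in co-culture, where 13.9% of all genes were called higher, and Cry1 and Clock were lower, where 16.4% were called lower. The smallest adjusted p was 0.0142, for Nr1d1, and the largest of the 7 was 0.0953, for Per1. Per2, Arntl and Nr1d2 did not pass, with adjusted p-values of 0.307, 0.493 and 0.77. The split came from expression in these same libraries, so that the adjusted p-values of this fit may be too small. The 7 calls are therefore no independent support for a difference. When MO2 and MC3 were left out, an alternative chosen after the values were seen, 4 of the 10 genes passed, against 13.0% of all genes tested in that fit. These were Nr1d1, Bhlhe40 and Cry2, higher in co-culture (8.33% of all genes), and Cry1, lower (4.71%).
The difference between co-culture and MS-5 only was also taken within each kind of library, in log2 CPM. It had the same sign in MC3 against MO2 and in MC1 and MC2 against MO1 and MO3 for 10 of the 10 genes, against 78.4% of all genes tested. It was near 0 in Arntl (0.06 and 0.09) and in Nr1d2 (-0.08 and -0.01), and for Nr1d2 edgeR on the latter 4 libraries gave a log2 fold change of 0.0044. It was 0.58 and 0.57 in Nr1d1, 0.48 and 0.51 in Bhlhe40, 0.38 and 0.41 in Dbp, 0.37 and 0.58 in Cry2, and 0.15 and 0.37 in Per1, where the values were least alike in ratio among the 7 genes called with the covariate. It was -0.45 and -0.54 in Cry1, and -0.32 and -0.37 in Clock. MC3 and MO2 are 1 library each, so that the first value of each pair has no replicate.

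**Figure D2:**
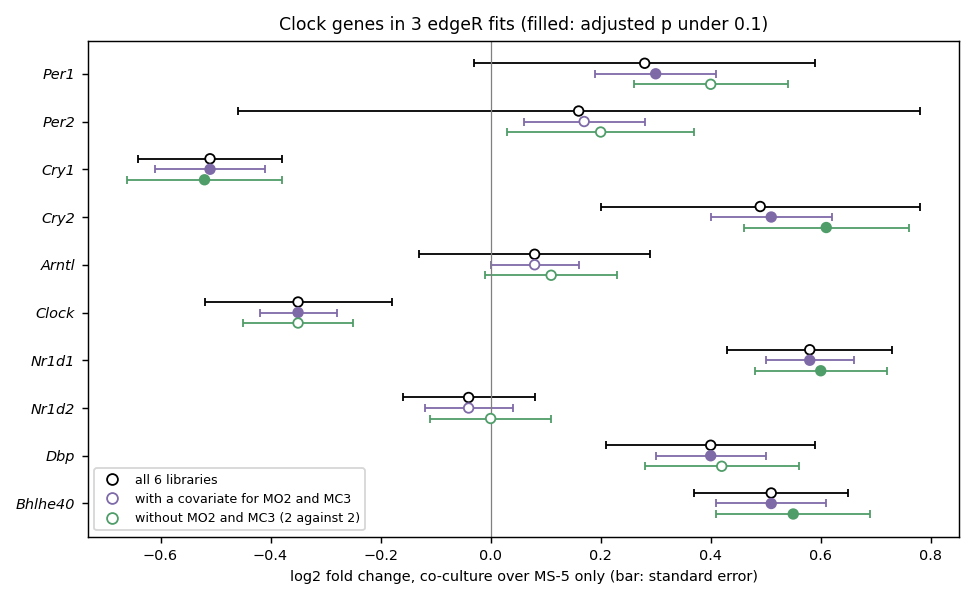
Log2 fold change of co-culture over MS-5 only (horizontal axis) for the 10 clock genes in 3 edgeR fits, with bars for the standard error and filled points for an adjusted p under 0.1. No point is filled in the fit of all 6 libraries, 7 are filled with MO2 and MC3 as a covariate, and 4 without MO2 and MC3, and the points of a gene lie close together.

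Per1, Per2, Cry2, Arntl, Clock and Nr1d2 were higher in MO2 than in MO1 and MO3, and all of these were higher in MC3 than in MC1 and MC2, 6 genes of 10 where 33.0% of all genes tested showed this. The ratio of MO2 to the mean of MO1 and MO3 was 3.05 in Per2, 1.80 in Per1, 1.72 in Cry2, 1.38 in Arntl, 1.26 in Clock and 1.07 in Nr1d2, and that of MC3 to the mean of MC1 and MC2 was 2.97, 1.54, 1.48, 1.35, 1.30 and 1.03. Nr1d2 was counted on margins smaller than its spread, at 87.3 CPM in MO2 and 87.0 in MO3, and 82.7 in MC3 and 82.5 in MC1. In Nr1d1, Dbp and Bhlhe40 both libraries lay below the mean of the other 2 of their group, with ratios of 0.854 and 0.857 in Nr1d1 and of 0.788 and 0.773 in Dbp. Within the 10 genes these 2 libraries also differed in the kind of transcript counted, and the same share over all genes was not computed. Transcripts annotated as retained introns held 4.40% and 4.16% of the counts of the 10 genes in MO2 and MC3, and 1.09% to 1.27% in the other 4. Of the retained-intron counts in MO2 and MC3, the largest part was on Dbp-205, a transcript of Dbp. Dbp-205 had 376 and 494 estimated counts in MO2 and MC3 and 42.9 to 90.8 in the others. The part of this in the levels of Per1 and Per2 was not tested.

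Levels of different genes were compared in TPM, which allows for transcript length. In MS-5 only, Dbp was highest at 83.3 ± 12.5 TPM (SD, n = 3), then Nr1d1 at 65.3 ± 13.3 and Bhlhe40 at 45.2 ± 15.7 TPM. Nr1d2 had 27.3 ± 12.3 TPM. Arntl at 11.8 ± 5.98, Per1 at 11.3 ± 7.21, Clock at 11.2 ± 4.84 and Cry1 at 9.47 ± 2.64 TPM were within each other's spread. Cry2 had 6.38 ± 4.25 and Per2 4.78 ± 4.63 TPM, and although these spreads overlap, Cry2 was above Per2 within every library. The order Dbp, Nr1d1, Bhlhe40, Nr1d2 held in 5 of the 6 libraries, and in MC3 Nr1d1 (125 TPM) was above Dbp (124 TPM).

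Ratios within a library do not depend on how libraries were scaled. The TPM of Cry1 was 2.16, 1.11 and 1.90 times that of Cry2 in MO1, MO2 and MO3, and 0.823, 0.966 and 0.588 times in MC1, MC2 and MC3. The ratio in MC2 was close to 1, and with protein-coding transcripts alone, a choice made after the values were seen, it was 1.09 there, against 0.836 in MC1, 0.666 in MC3 and 1.2 in MO2. Which gene was higher in MC2 thus depended on non-coding forms of Cry2, of which Cry2-204 had 0.551 TPM from 2.0 estimated counts. The ratio of Nr1d1 to Nr1d2 was 3.12, 1.94 and 2.60 in MS-5 only against 4.28, 4.23 and 3.32 in co-culture. That of Clock to Arntl was 1.11, 0.897 and 0.920 in MS-5 only against 0.773, 0.724 and 0.667 in co-culture. None of these 3 ratios overlapped between the groups, with all transcripts or with the protein-coding ones alone. The ratio of Nr1d1 to Arntl, repressor to target, was 7.38, 4.32 and 6.54 in MS-5 only against 11.0, 8.72 and 6.19 in co-culture, and overlapped. That of Per2 to Per1 was 0.268, 0.516 and 0.323 against 0.269, 0.315 and 0.538. The 5 ratios were chosen after the values were seen and have no test. The share of other gene pairs without overlap was not counted. The 3 that parted pair genes with unlike fold changes, so that the lack of overlap adds no result of its own.

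**Figure D3:**
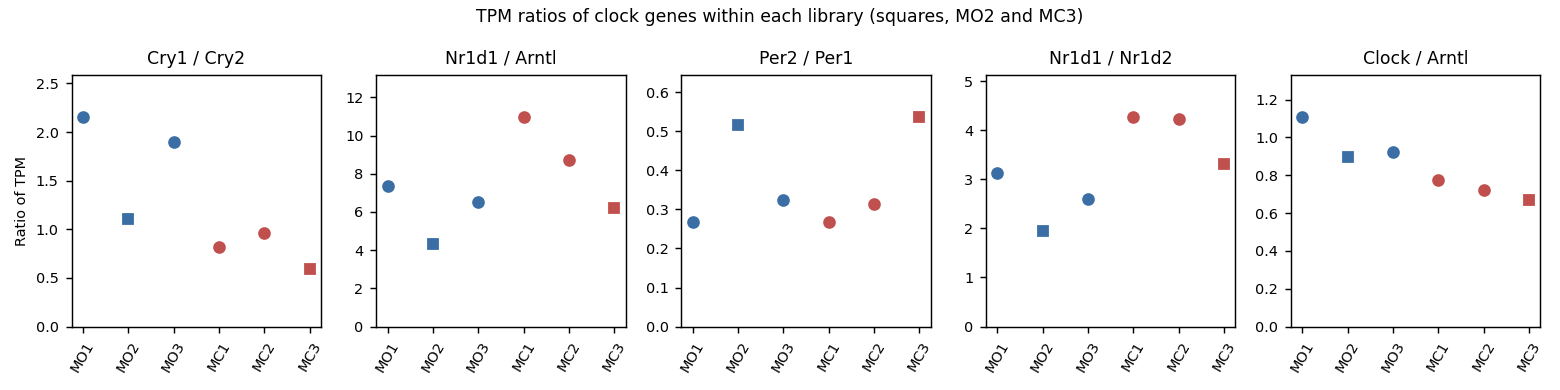
Ratio of TPM of 5 pairs of clock genes (vertical axes from 0) in each library, with MS-5 only in blue, co-culture in red and squares for MO2 and MC3. Cry1 over Cry2 is lowest in MO2 (1.11) among MS-5 only and highest in MC2 (0.966) among co-culture libraries, the latter becoming 1.09 with protein-coding transcripts alone, while Per2 over Per1 is highest in MO2 and MC3.

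The transcripts behind each gene were in most cases 1 main form. Per2-201, Cry1-201, Cry2-201, Nr1d1-201, Nr1d2-201 and Bhlhe40-201 held 95.2% to 99.98% of the counts of their genes over all libraries. Per1 differed between libraries in the form counted. Its forms Per1-201 and Per1-206 share 4598 exonic bases and differ in the first exon, which is 61 bases long in Per1-201 (chromosome 11, 69098948 to 69099008) and 38 bases long in Per1-206 (69100158 to 69100195), and these lie at the upstream and the downstream start printed above. Per1-206 had 0, 82.1 and 32.7 estimated counts in MO1, MO2 and MO3, against 514, 385 and 0.3 in MC1, MC2 and MC3. Its share of the gene was thus 41.7% in MC1 and 51.8% in MC2 and at most 5.9% in the other 4 libraries. In MC3 Per1-201 had 1577 counts, 87.0% of the gene, and in MO1 it held 92.2%. The split rests on the reads that reach the first exon or the last bases, and the deposited values carry no error for it. Another form, Per1-202, had 44.4 to 202 estimated counts.
In Arntl, the form Arntl-206 held 14.4%, 15.1% and 28.3% of the counts in MS-5 only against 23.3%, 31.1% and 30.2% in co-culture, and the groups overlapped. In Clock, the form Clock-201 held 57.1% to 70.1% of the counts, Clock-205 17.8% to 27.6% and Clock-204 9.0% to 14.5%. In Dbp, Dbp-201 held 62.7% to 76.7% and Dbp-204 12.6% to 22.4%.

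**Figure D4:**
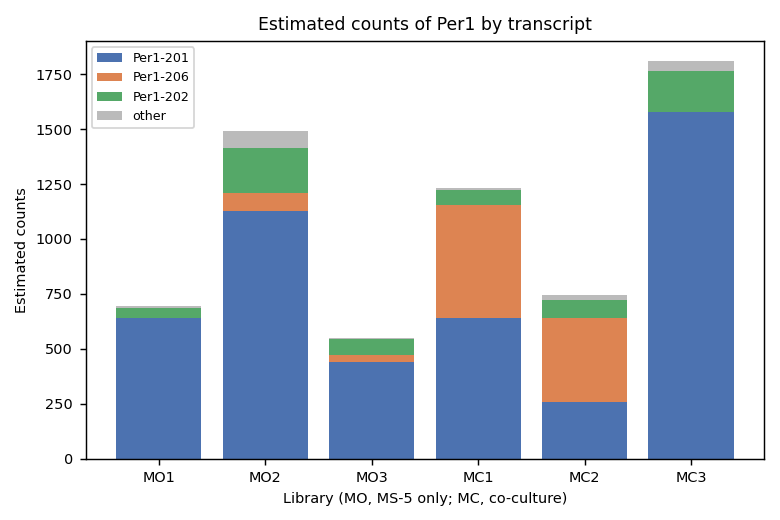
Estimated counts of Per1 (vertical axis) in each library, stacked by transcript. Per1-206 holds 514 counts in MC1 and 385 in MC2, and 0.3 in MC3, where Per1-201 has 1577.

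Some of the genes share exonic bases with a neighbour on the other strand. Nr1d1 shares 263 bases with Thra, a thyroid hormone receptor gene, which had 1726, 2651 and 2069 estimated counts in MO1, MO2 and MO3 against 3049, 2320 and 3081 in MC1, MC2 and MC3. Dbp shares 539 bases with Sphk2, a sphingosine kinase gene with 600 to 918 counts. The methods name a stranded library kit, but whether the counting used strand is not given in the sources used here, so that reads in these stretches are uncertain. Cry2, Arntl and Bhlhe40 overlap antisense or non-coding genes by 295, 33 and 118 exonic bases, and none of those genes has a transcript in the files.

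A list of 27 other genes of the clock and its outputs was read from the same test, and 24 of them passed the filter on low counts. In edgeR 0 of the 24 had an adjusted p under 0.1, against 4.38% of all genes tested, and 5 had an unadjusted p under 0.05, against 14.3%. DESeq2 called 3 of the 24, against 9.59% of all genes, and limma on log2(TPM + 0.5) called 0, against 2.69%. With MO2 and MC3 as a covariate, 9 were called, 6 higher and 3 lower, against 30.2% of all genes. In CPM, groups did not overlap in 5 of the 24, against 21.2% of all genes, with 4 higher in co-culture (11.6% of all genes) and 1 lower (9.60%). These shares were near those over all genes. Of the 24, 9 had their highest co-culture value in MC2, the library with the most leukocyte marker counts, against 32.0% of all genes tested.
Among regulators of Arntl, Rora, which encodes a receptor that activates it, had 11.2, 19.4 and 16.4 CPM in MS-5 only and 25.4, 22.4 and 24.2 CPM in co-culture (log2 fold change 0.62, SE 0.22, edgeR adjusted p = 0.261). Nfil3, which encodes the repressor at D-boxes that opposes DBP, had 29.3, 37.9 and 35.2 CPM in MS-5 only and 59.8, 43.1 and 52.1 CPM in co-culture (log2 fold change 0.60, SE 0.17, edgeR adjusted p = 0.163). Every co-culture library was above every MS-5 only library in both genes.
Csnk1e, a kinase that marks PER proteins for breakdown, had 65.4, 72.7 and 55.3 CPM in MS-5 only and 75.1, 77.5 and 95.2 CPM in co-culture. Nampt, the rate-limiting enzyme of NAD salvage and a clock output, had 67.4, 68.8 and 73.3 CPM in MS-5 only and 119, 187 and 104 CPM in co-culture, with a log2 fold change of 0.97 (SE 0.23, edgeR adjusted p = 0.108). It was highest in MC2, as the leukocyte markers were, and without MC3 it passed, with an adjusted p of 0.0665. Tipin, which encodes the partner of TIMELESS at replication forks, was lower in all co-culture libraries, at 32.7, 34.9 and 30.0 CPM against 51.9, 40.1 and 43.7 CPM in MS-5 only.
Of the nearest paralogues of the 10 genes, Per3 repeated the pattern of Per2, with 7.34, 51.4 and 7.89 CPM in MS-5 only and 12.8, 11.2 and 56.9 CPM in co-culture (log2 fold change 0.28, SE 0.96, edgeR adjusted p = 0.968). Its direction was not stable either, at -0.90 without MC3 and 1.82 without MO2. Bhlhe41 (Dec2) had 46.0, 39.7 and 48.4 CPM in MS-5 only and 59.9, 47.5 and 42.6 CPM in co-culture, and its groups overlapped. Arntl2 had 3.99 to 9.69 CPM, with the higher values in MO2 and MC3, and a log2 fold change from -0.41 to 0.45 with each library left out. Npas2, which can stand in for Clock, was not tested, with 0, 1 and 0 counts in MO1, MO2 and MO3 against 4, 22 and 6 in MC1, MC2 and MC3, and was highest in MC2, where the summed leukocyte markers were also highest (394 CPM against 92.4 in MC1 and MC3). The part of those cells in the counts was not tested. Hlf and Fbxl21 had at most 5 counts in a library.

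**Figure D5:**
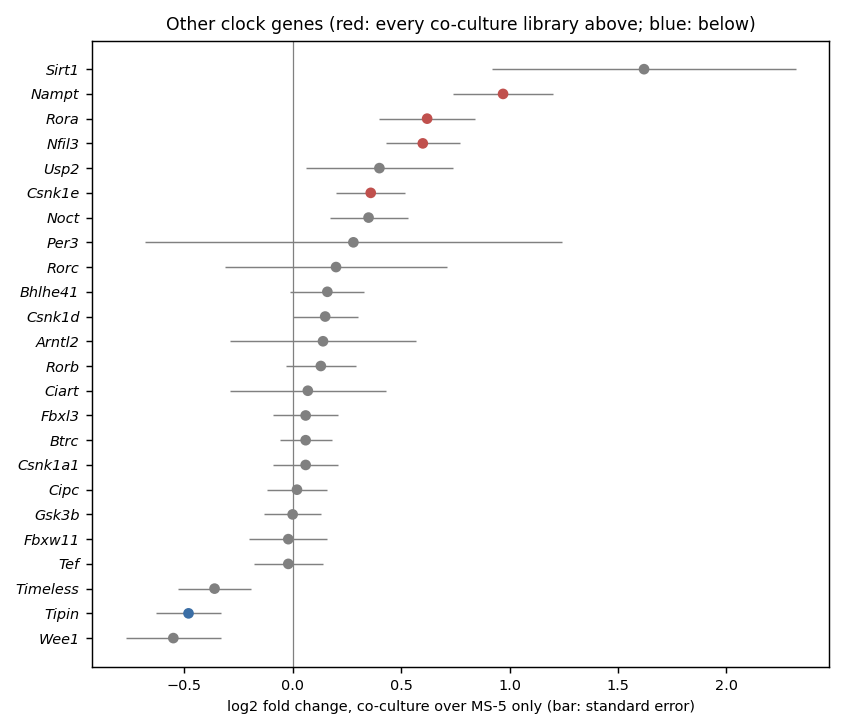
Log2 fold change of co-culture over MS-5 only (horizontal axis, bars for the standard error) for the 24 other clock genes tested, in red where every co-culture library lay above MS-5 only, in blue where every one lay below and in grey where groups overlapped. Rora, Nfil3, Csnk1e and Nampt are red and Tipin is blue, and none passed an adjusted p of 0.1.

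For 3 of the genes, the transcripts most alike over the 6 libraries were found by the mean absolute difference of centred log2 CPM. Nr1d1 was most like Hmox1, the heme oxygenase gene, at a mean difference of 0.039, then Fstl3 at 0.044 and Bhlhe40 at 0.044, where the median gene tested differed by 0.395. Bhlhe40 was most like Zfp395 at 0.042, Ticam1 at 0.043 and Nr1d1 at 0.044, with a median of 0.371. Nr1d1 and Bhlhe40 were thus each among the 3 genes nearest to the other. The nearest genes were picked for the smallest differences, so that they lie below the median by choice and the gap is no test. Arntl was most like Ubr1 at 0.021, Ik at 0.028 and Ccdc50 at 0.033, with a median of 0.337, and none of these had an adjusted p under 0.1. Hmox1 had 122, 103 and 121 CPM in MS-5 only and 194, 180 and 160 CPM in co-culture, with a log2 fold change of 0.62 (edgeR adjusted p = 0.0916).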

How the data were processed

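RNA-seq of 3 MS-5 only and 3 co-culture libraries was used, with groups and replicate numbers from the sample titles. The authors quantified reads with Kallisto 0.43.0 on a mouse GRCm38 cDNA index and deposited estimated counts, lengths and TPM for 118489 transcripts. The deposited TPM are estimated counts per effective length, scaled to a fixed total per library. Of the transcripts, 116728 matched GENCODE M21 (GRCm38) in version and length. Estimated counts were summed per gene, rounded, filtered with filterByExpr (13221 genes left), normalised by TMM and tested with edgeR 4.0.16 in R 4.3.3, at an adjusted p-value threshold of 0.1, the level of the study's results text. The study's methods state a stricter level. SE of a log2 fold change is its size over the square root of the F statistic. CPM are TMM-normalised. Library totals were 23978881 to 35694987 counts, and 3 libraries per group limit the precision. DESeq2 1.42.0 and limma 3.58.1 (pseudocounts 0.1, 0.5 and 1) were alternatives. On simulated counts, edgeR recovered 173 of 200 genes changed by a log2 of 2 with 22 false calls, DESeq2 184 with 78. Named are the 10 genes, other clock genes that passed or did not overlap, the nearest paralogues, 3 most alike genes for Arntl, Nr1d1 and Bhlhe40, overlapping genes, and transcripts with at least 10% of a gene's counts. Genes and lists were chosen with earlier results of these data known. Clock genes named outside this rule, and transcript Dbp-205, were chosen after their values were seen. The sleuth test of the study was not used here. Other assays were not analysed here.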

Additional observations from a re-analysis of the deposited data

How the results depend on the processing

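At the threshold of 0.1, the count of all genes called, 579, became 1268 with DESeq2's Wald test, 356 and 224 with limma at pseudocounts of 0.5 and 1, 3999 with MO2 and MC3 as a covariate, 1702 without both libraries, 2 at a threshold of 0.05, and 0 to 549 with each library left out in turn, 0 without any one MS-5 only library. The count of the 10 clock genes called, 0, became 1 with library size alone (Nr1d1), 3 with DESeq2, 7 once those libraries had a covariate, 4 without MO2 and MC3 (chosen after seeing the data), and stayed at 0 with each library left out. That of the other clock genes, 0, became 1 with library size alone, 1 with no filter, 3 with DESeq2, 9 with the covariate, 5 without MO2 and MC3, and 0 to 1 with each library left out. The cause was not tested. With each library left out, Per2 ran from -0.57 to 0.91, Arntl from -0.08 to 0.25, Per1 from 0.04 to 0.61, Cry2 from 0.27 to 0.80 and Dbp from 0.26 to 0.53. Direction turned in 5 of 190 fits of single clock genes, in Per2 (-0.10 without MO1, -0.09 without MO3 and -0.57 without MC3), Arntl (-0.08 without MC3) and Nr1d2 (0.0044 without MO2 and MC3). In the deposited TPM, 0 of the 10 clock genes had groups without overlap, where CPM gave 3. The replicate block called 444 of all genes, 0 of the 10 clock genes and 0 of the other clock genes. Same-numbered libraries deviated together at 0.53, -0.29 and -0.52 across genes, and MO2 was nearest to MC3 (0.73). The deviations thus did not follow the numbers throughout. These values cannot settle whether the numbers pair the libraries, because MO2 and MC3 stand apart from the rest. The 10 clock genes had 263 to 7289 counts per library, and each group had 3 libraries.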
